A study of Glycine max with 12 samples.

Results

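Soybean root tips treated with the brassinosteroid synthesis inhibitor propiconazole (PPZ) were compared directly with root tips treated with the brassinosteroid that the labels call BL, taken here as brassinolide, without passing through an untreated group. The comparison took 6 of the 12 RNA-seq libraries of the series, 3 of PPZ and 3 of BL, chosen by their labels alone. PPZ seedlings had 0.1 μM PPZ for 2.5 days and BL seedlings had 0.01 nM BL for 0.5 days, so agent, dose and length of treatment cannot be told apart. In both groups the last 1 cm of the root was taken from seedlings of the same age, germinated for 3 days in vermiculite and then grown in diluted Hoagland solution under 16 h of light and 8 h of darkness. The group PPZ plus BL, which had both agents at the same doses, was used for levels only. The sources disagree on its order of treatment, since the series text puts 2 days of PPZ before 0.5 days of BL while the sample labels name PPZ as given after BL. All plants were wild type, named Wm82 in the labels and YC03-3 in the study's methods, and nothing in the sources says how many roots were pooled in a library or whether replicates came from separate cultures, so p-values measure the spread between these libraries.

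Brassinosteroids are steroid hormones perceived at the cell surface by the receptor kinase BRI1. In the presence of hormone the kinase BIN2 is inactivated and the BZR/BES1 transcription factors, otherwise held in the cytoplasm by 14-3-3 proteins, act on target genes for wall loosening, cell expansion and hormone synthesis. In the root tip both too little and too much hormone are known to limit growth. PPZ is a triazole, a class of compounds that bind cytochrome P450 enzymes, among them those of brassinosteroid synthesis.

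Total counts lay between 18928309 and 23815174 per library. The 10 most counted genes took 2.55% to 2.88% of a library. The first principal component of the log2 levels held 80.7% of the variance and separated the PPZ from the BL libraries. Levels are given as CPM, a count in proportion to the scaled library size. Among tissue markers, the summed level of the 9 root cap proteins, of a part of the sampled tip, was 154 to 192 CPM in PPZ and 447 to 476 CPM in BL. That of the 39 chlorophyll a/b binding proteins, of green tissue, was 182 to 245 CPM in PPZ and 355 to 481 CPM in BL. The 7 globins, which include those of nodules, summed to 1914 to 2164 CPM in PPZ and 865 to 1216 CPM in BL, and 3 of the 7 had no count in any of the 6 libraries. A library of root tips cannot tell fewer cells of a type from less RNA per cell.

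Of 35837 annotated genes tested, 1729 (4.82%) were higher and 716 (2.00%) were lower in PPZ than in BL. Every call used here needed an adjusted p not above 0.01 together with a 3-fold difference. The genes higher in PPZ had a median change of 2.43 on the log2 scale and 459 of them differed at least 10-fold, while the genes lower in PPZ had a median size of change of 2.08 and 69 differed at least 10-fold. The median log2 fold change (PPZ over BL) of all genes tested was -0.01, with 49.2% of genes above 0 and 50.8% below 0. Without the fold threshold 4853 genes (13.5%) were higher and 4642 were lower, so the excess of higher genes lay among large changes. When libraries were scaled by their totals alone, 1470 genes were higher and 999 lower, the higher share of the calls fell to 59.5% from 70.7% and the median of all genes moved to -0.17. Every called gene had groups that did not overlap, as did 28.5% of all genes tested with PPZ above BL and 29.1% with PPZ below BL. The call was kept with any 1 library left out for 1070 of the 1729 higher genes and 339 of the 716 lower genes. In gene lists, counts of 1 or 2 called members ranged from 0 to 3 over the fits without 1 library, except for metal carriers, described with their values.

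**Figure D1:**
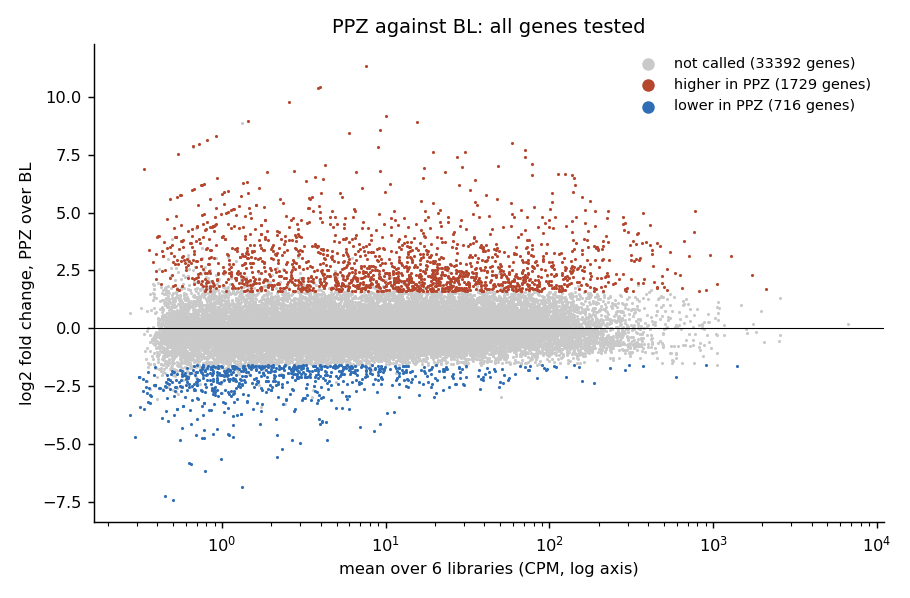
Log2 fold change (PPZ over BL) against mean level (CPM, log axis) of the 35837 genes tested, 1 point a gene, with red for the 1729 genes called higher and blue for the 716 called lower in PPZ. Red points outnumber blue ones, with 459 genes at least 10-fold higher and 69 at least 10-fold lower in PPZ.

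The called genes that took the most reads were enzymes of sugar breakdown and fermentation on the PPZ side. ADH2 (Glyma.04G240800, alcohol dehydrogenase, which reduces acetaldehyde to ethanol) had 2776, 2450 and 1734 CPM in PPZ, against 278, 291 and 234 CPM in BL, a log2 fold change of 3.11 ± 0.20 (SE, adjusted p = 0.000103). The thiamine pyrophosphate enzyme Glyma.13G231700, of the family that holds pyruvate decarboxylase, the enzyme before it in ethanol formation, had 2159, 1735 and 1261 CPM in PPZ, against 194, 215 and 168 CPM in BL (3.16 ± 0.22, adjusted p = 0.000117). The sucrose synthase Glyma.09G073600, which cleaves sucrose, had 3271, 2836 and 2562 CPM in PPZ, against 452, 601 and 705 CPM in BL (2.30 ± 0.19, adjusted p = 0.000209). In each of these genes the groups were far apart, and PPZ replicate 1 was the highest and PPZ replicate 3 the lowest of the PPZ libraries.

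A second zinc-binding alcohol dehydrogenase, Glyma.06G122600, had 3752, 3396 and 2491 CPM in PPZ, against 954, 1058 and 959 CPM in BL (1.70 ± 0.17, adjusted p = 0.000387). Its call was lost without PPZ replicate 1 (1.57) and with scaling by library totals (1.53), and its gene model overlaps another, whose reads cannot be told from it in a library that does not mark strand. The expansin Glyma.17G147500, a wall-loosening protein, had 1811, 1427 and 1760 CPM in PPZ, against 362, 466 and 514 CPM in BL (1.90 ± 0.17, adjusted p = 0.00026). These 5 were the called higher genes with the highest mean CPM, which is not corrected for gene length.

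On the side lower in PPZ the most counted genes were of protein synthesis, methionine synthesis and water transport. Glyma.15G115000, without a Pfam domain, had 636, 724 and 695 CPM in PPZ, against 2285, 2075 and 1978 CPM in BL. EF4 (Glyma.05G114900), an elongation factor Tu family protein of translation, had 372, 464 and 507 CPM in PPZ, against 1483, 1288 and 1310 CPM in BL. The cobalamin-independent methionine synthase Glyma.19G114500 had 139, 189 and 224 CPM in PPZ, against 627, 516 and 545 CPM in BL. All 3 stood at log2 fold changes of -1.60 to -1.62, just past the threshold, with adjusted p of 0.000149 to 0.00053, and each lost its call without PPZ replicate 1 (-1.45 to -1.58) and without BL replicate 1 (-1.53 to -1.57), staying lower in PPZ. The aquaporin Glyma.03G185900, a water channel, had 183, 228 and 262 CPM in PPZ, against 1110, 856 and 930 CPM in BL (-2.11 ± 0.17, adjusted p = 0.000183). PIP2-14 (Glyma.20G179700), a water channel of the plasma membrane, had 137, 164 and 156 CPM in PPZ, against 467, 440 and 467 CPM in BL (-1.59 ± 0.11, adjusted p = 0.000117), and lost its call without PPZ replicate 1 (-1.52), BL replicate 1 (-1.58) or BL replicate 3 (-1.58).

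The largest changes upward were of genes with no or almost no counts in BL. Glyma.08G156300, a class V aminotransferase, had 19.9, 15.2 and 10.1 CPM in PPZ and no count in BL, at least 114-fold higher against a floor of 3 counts per library (adjusted p = 0.000249). The NAD-dependent epimerase/dehydratase Glyma.09G269400 had 9.49, 2.70 and 3.10 CPM in PPZ and no count in BL, at least 38.6-fold higher. Glyma.12G081100, without a Pfam domain, had 9.74, 7.51 and 6.01 CPM in PPZ and no count in BL, at least 58.8-fold higher. The alpha/beta hydrolase Glyma.18G298000 was at 2.83, 1.52 and 1.14 CPM in PPZ and no count in BL, at least 13.9-fold higher. Adjusted p for these last 3 was 0.000202 to 0.00244.

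A short stretch of chromosome 5 held neighbours that differed in opposite directions (positions on the Wm82.a4 annotation of the table). The leucine-rich repeat proteins Glyma.05G123700 (31785969 to 31787341) and Glyma.05G123900 (31799312 to 31800592) had 3.03, 2.50 and 3.10 CPM and 9.74, 7.56 and 6.39 CPM in PPZ, with no count in BL, and were at least 21.8-fold and 59.9-fold higher. The WRKY transcription factor Glyma.05G123600, just before them (31779124 to 31784281) on the same strand, had 0.151, 0.442 and 0.238 CPM in PPZ, against 1.31, 2.24 and 2.14 CPM in BL (-2.74 ± 0.42, adjusted p = 0.00175). The leucine-rich repeat genes were thus read in every PPZ library and in none of BL, while the WRKY gene was lower in all PPZ libraries.

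Glyma.14G176800, a cysteine oxidase of the PCO/ADO family, had 28.7, 19.3 and 12.5 CPM in PPZ, against 0.0792, 0 and 0 CPM in BL. Since BL held 2 counts in all, its ratio of 691 has a 95% counting interval of 191 to 5711. In Arabidopsis plant cysteine oxidases use oxygen to mark ethylene response factors of group VII for breakdown. The ABC transporter Glyma.18G263200, whose model overlaps another gene, had 8.94, 13.2 and 13.5 CPM in PPZ, against 0.0792, 0 and 0 CPM in BL, a ratio of 412 (114 to 3409). Glyma.12G048100, without a Pfam domain, had 42.0, 29.6 and 21.3 CPM in PPZ, against 0, 0.0828 and 0.102 CPM in BL (8.92 ± 0.49, adjusted p = 6.75e-05). PPZ replicate 1 was again the highest of the PPZ libraries for the cysteine oxidase and for Glyma.12G048100, though not for the transporter.

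The largest changes downward were of genes at low levels in both groups. ALMT16 (Glyma.10G173400), of the aluminium-activated malate transporter family, had no count in PPZ and 0.634, 1.24 and 1.12 CPM in BL, at least 6.78-fold lower (adjusted p = 0.00187). Glyma.03G217800, without a Pfam domain, also had no count in PPZ and 0.872, 0.538 and 1.27 CPM in BL, at least 6.07-fold lower (adjusted p = 0.00277). The zinc finger homeodomain gene Glyma.07G107200 had 0.0505, 0.147 and 0.0477 CPM in PPZ, against 3.21, 3.27 and 6.16 CPM in BL (-5.58 ± 0.51, adjusted p = 0.000275). The flavin-binding monooxygenase Glyma.10G041800, of a family that holds the YUCCA enzymes of auxin synthesis, had 0, 0.147 and 0.191 CPM in PPZ, against 4.75, 2.65 and 6.26 CPM in BL (-5.24 ± 0.60, adjusted p = 0.000552). Glyma.13G171400, Glyma.08G300500, Glyma.14G053900 and Glyma.06G231750, all without a Pfam domain, had at most 0.295 CPM in any PPZ library and 0.952 to 6.17 CPM in BL.

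**Figure D2:**
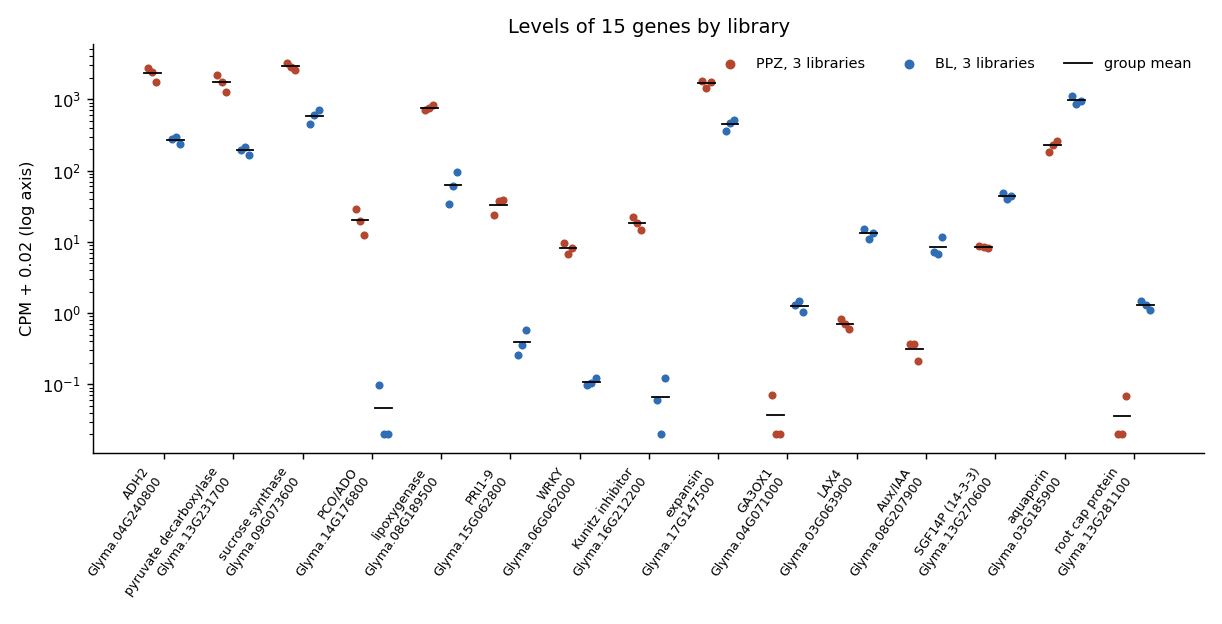
Level (CPM + 0.02, log axis) of 15 genes in each of the 3 PPZ (red) and 3 BL (blue) libraries, with a black line at the mean of each group. The 15 were taken from the called genes, none of which had overlapping groups, so that the PPZ and BL points stand apart follows from the choice. They range from the abundant ADH2 (1734 to 2776 CPM in PPZ, 234 to 291 CPM in BL) to GA3OX1 and the root cap protein, which are near 0 in PPZ.

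Few genes of the brassinosteroid pathway were called, though not a smaller share than of all genes. Of 47 tested members of the list of BZR/BES1 factors, EXORDIUM proteins and 14-3-3 proteins, 2 were higher and 2 lower, 4.26% each way, beside 4.82% and 2.00% of all genes. None of the 14 BZR/BES1 genes was called, with log2 fold changes from -0.51 to 0.97. SGF14P (Glyma.13G270600), a 14-3-3 protein, had 8.58, 8.40 and 8.15 CPM in PPZ, against 48.7, 39.98 and 44.4 CPM in BL (-2.40 ± 0.11, adjusted p = 4.16e-05), the largest difference downward in the list and one with little spread in either group. The EXORDIUM family gene Glyma.08G178000 had 19.99, 13.1 and 8.91 CPM in PPZ, against 1.39, 3.44 and 2.60 CPM in BL (2.50 ± 0.38, adjusted p = 0.00173), and in Arabidopsis EXORDIUM is a gene that brassinosteroids induce. The family was split, with 2 higher (13.3%) and 1 lower (6.67%) of 15 tested. Its median was -0.30 and its log2 fold changes ran from -2.30 to 2.50.

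Receptors and enzymes with a RefSeq symbol were looked up after other values had been seen. BRI1A (Glyma.06G147600) had 49.5, 45.7 and 40.9 CPM in PPZ, against 43.7, 40.3 and 40.3 CPM in BL, and differed by 0.13 ± 0.10 (adjusted p = 0.318). BRI1B (Glyma.04G218300) had 81.6, 71.0 and 61.7 CPM in PPZ, against 53.3, 47.1 and 50.5 CPM in BL (0.51 ± 0.12, adjusted p = 0.0113). BIN2 (Glyma.13G228100) had 52.9, 52.4 and 51.3 CPM in PPZ, against 43.9, 44.5 and 43.5 CPM in BL (0.25 ± 0.08, adjusted p = 0.0341). CYP90A15 (Glyma.11G228900), a P450 of the brassinosteroid synthesis family, had 2.98, 4.32 and 3.53 CPM in PPZ, against 2.34, 2.65 and 3.11 CPM in BL (0.42 ± 0.21, adjusted p = 0.134). None of these genes was called, which does not show that their levels were equal. The sterol and steroid synthesis list had 1 higher and 1 lower gene of 32 tested and a median of -0.50, and the sterol methyltransferase SMT2-1 (Glyma.04G020600) had 80.7, 79.3 and 88.7 CPM in PPZ, against 138, 121 and 125 CPM in BL (-0.62 ± 0.10, adjusted p = 0.00203, under the fold threshold).

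Cytochrome P450 genes were called higher more often than genes at large. Of 208 tested, 34 (16.3%) were higher and 5 (2.40%) lower, with a median of 0.29, and the 398 members summed to 6749 to 7833 CPM in PPZ and 3642 to 4140 CPM in BL. With any 1 library left out, 23 to 32 were higher. The fewer lower ones fell to 3, 3 and 2 without PPZ replicate 1, PPZ replicate 2 and BL replicate 3. Glyma.16G076600 had 19.6, 12.3 and 7.15 CPM in PPZ, against 0.159, 0.0828 and 0.102 CPM in BL (6.74 ± 0.55, adjusted p = 0.000185), and Glyma.17G080500 had 0.909, 1.13 and 1.00 CPM in PPZ, against 5.98, 3.68 and 3.41 CPM in BL (-2.10 ± 0.28, adjusted p = 0.00105). Glycosyltransferases, which attach sugars to hormones and other small molecules, had 13 higher and 9 lower members of 144, and the higher count was 7 without BL replicate 2. Glyma.01G036000 led those higher in PPZ (31.2, 14.5 and 7.58 CPM in PPZ, against 1.23, 1.12 and 1.12 CPM in BL) and Glyma.03G104800 those lower (0, 0.246 and 0 CPM in PPZ, against 3.37, 1.45 and 1.99 CPM in BL).

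Gibberellin enzymes were called in both directions, with GA3OX genes lower and GA2OX5 higher in PPZ. GA3OX1 (Glyma.04G071000), of the enzymes that make active gibberellin, had 0.0505, 0 and 0 CPM in PPZ, against 1.27, 1.45 and 1.02 CPM in BL, a ratio of BL over PPZ of 77.1 (95% counting interval 13.5 to 3078). Its relative GA3OX3 (Glyma.13G361700) had 4.29, 6.53 and 7.20 CPM in PPZ, against 42.0, 37.3 and 36.9 CPM in BL (-2.69 ± 0.18, adjusted p = 0.000114). GA2OX5 (Glyma.13G218200), of the enzymes that inactivate gibberellin, had 25.04, 24.2 and 22.2 CPM in PPZ, against 3.29, 5.55 and 4.89 CPM in BL (2.38 ± 0.18, adjusted p = 0.000153). Of the other genes with such a symbol none was called. GA2OX2 (Glyma.10G010700, 1.34 ± 0.31, adjusted p = 0.00949) and GA2OX8 (Glyma.15G093900, 1.47 ± 0.37, adjusted p = 0.0137) were on the side of GA2OX5, and GA20OX3 (Glyma.09G149200), of an earlier step of synthesis, differed by -1.41 ± 0.39 (adjusted p = 0.0207). On the other side GA2OX6 (Glyma.13G259400) had 5.20, 8.25 and 8.72 CPM in PPZ, against 14.5, 19.9 and 21.8 CPM in BL (-1.34 ± 0.22, adjusted p = 0.00252, under the fold threshold), and GA2OX1 (Glyma.02G010100) differed by 0.05 ± 0.24 and GA2OX7 (Glyma.13G259500) by -0.52 ± 0.59. Except for GA3OX1, these were chosen by symbol after values had been seen. Such enzymes are 2-oxoglutarate dependent dioxygenases, of which 19 were higher and 13 lower among 134 tested, and the lower count was 8 without PPZ replicate 1 or PPZ replicate 2. Glyma.07G150900 led the dioxygenases higher in PPZ (3.33, 2.21 and 3.91 CPM in PPZ, against 0, 0.166 and 0.0509 CPM in BL).

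GRAS regulators, which include the DELLA repressors of gibberellin response, had 6 higher (6.59%) and 2 lower (2.20%) of 91 tested, near the 4.82% and 2.00% of all genes. The gibberellin-regulated GASA peptides had 0 higher and 3 lower of 16. The GRAS gene Glyma.06G265500 had 239, 165 and 119 CPM in PPZ, against 4.91, 7.41 and 6.01 CPM in BL (4.83 ± 0.30, adjusted p = 8.88e-05). GASA34 (Glyma.19G022500) had 1.51, 1.96 and 1.10 CPM in PPZ, against 7.61, 7.53 and 7.28 CPM in BL (-2.29 ± 0.21, adjusted p = 0.000281).

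Auxin genes were split. Of the Aux/IAA family, repressors of auxin response and parts of the response factors, 3 were higher and 7 lower of 84 tested, and GH3 enzymes, which conjugate auxin and other acids to amino acids, had 2 higher and 0 lower of 14. Glyma.08G207900 (Aux/IAA) had 0.353, 0.344 and 0.191 CPM in PPZ, against 7.25, 6.75 and 11.5 CPM in BL (-4.82 ± 0.34, adjusted p = 0.000124). Glyma.05G101300 (GH3) had 82.2, 59.2 and 66.3 CPM in PPZ, against 1.86, 6.29 and 10.03 CPM in BL (3.53 ± 0.48, adjusted p = 0.00108). LAX4 (Glyma.03G063900), of the auxin influx carriers, had 0.808, 0.687 and 0.572 CPM in PPZ, against 15.1, 11.1 and 13.4 CPM in BL (-4.25 ± 0.21, adjusted p = 4.41e-05). Among the other carriers with a symbol, PIN1A, PIN1B and PIN1C were not called (log2 fold changes -0.34, -0.01 and 0.25). LAX1 (-1.10, adjusted p = 0.00094), LAX3 (-0.54, adjusted p = 0.00432), LAX9 (-0.75, adjusted p = 0.00429) and PIN3A (-1.37, adjusted p = 0.0075) were lower in PPZ. These passed the threshold on p and not that on the fold change. LAX2 (0.23, adjusted p = 0.614), like PIN1C, differed the other way. LAX6, LAX8, LAX10, LAX11 and LAX13 stood at -0.08 to 0.00 (adjusted p of at least 0.715). LAX5, LAX12, LAX14 and LAX15 stood at -1.28 to -0.22, and PIN3B, PIN3D and PIN6B at -0.89 to -0.18, all with adjusted p above 0.01. Small auxin-up RNA genes had 4 higher and 5 lower members of 50 tested, and Glyma.17G189200 had the largest difference downward (0, 0.246 and 0 CPM in PPZ, against 2.14, 2.40 and 1.73 CPM in BL). Glyma.06G167500 led those higher (1.26, 0.687 and 1.67 CPM in PPZ, against 0, 0.207 and 0.102 CPM in BL) and kept its call in only 2 of the 6 fits without a library. The higher SAUR count was 2 without PPZ replicate 2 or BL replicate 2, and the lower count was 2 or 3 without PPZ replicate 1, PPZ replicate 2, BL replicate 1 or BL replicate 2.

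Cytokinin genes had 3 higher (7.89%) and 1 lower (2.63%) of 38 tested. The cytokinin oxidase Glyma.13G104700, which breaks the hormone down, had 19.4, 12.1 and 9.53 CPM in PPZ, against 0.357, 0.993 and 0.662 CPM in BL (4.34 ± 0.39, adjusted p = 0.000264). The lower one, the isopentenyl transferase Glyma.07G256700 (0.202, 0.295 and 0.0477 CPM in PPZ, against 1.11, 1.24 and 0.866 CPM in BL), lost its call without PPZ replicate 1 (-2.63), BL replicate 1 (-2.53) or BL replicate 2 (-2.44). Protein phosphatases 2C, which include the repressors of abscisic acid signalling, had 4 higher (2.80%) and 2 lower (1.40%) of 143, below the shares of all genes. Glyma.01G225100 had 62.4, 51.4 and 48.2 CPM in PPZ, against 0.317, 0.538 and 0.0509 CPM in BL (7.39 ± 0.34, adjusted p = 4.24e-05), while the median of its family was 0.15, or -0.01 with scaling by library totals. Glyma.04G233900 led the lower ones (0.252, 0.196 and 0.238 CPM in PPZ, against 1.07, 0.993 and 1.48 CPM in BL).

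Genes of families with a part in jasmonate synthesis and response were higher in PPZ where they were called at all. The list was set by protein domain, which does not show which members act in jasmonate. Of 68 tested, 15 (22.1%) were higher and 0 lower, with a median of 0.21, and 12 to 17 were higher with any 1 library left out. Lipoxygenases, a family that holds the first enzymes of the pathway, gave 7 of the 15. TIFY proteins, a family that holds the JAZ repressors, gave 6 and allene oxide cyclases 2. The lipoxygenase Glyma.08G189500 had 697, 760 and 820 CPM in PPZ, against 34.1, 60.2 and 95.3 CPM in BL (3.59 ± 0.35, adjusted p = 0.000324). AOC1 (Glyma.01G086900), chosen after its values were seen, had 84.4, 101 and 114 CPM in PPZ, against 21.4, 31.1 and 30.4 CPM in BL (1.85 ± 0.18, adjusted p = 0.000298).

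Protease inhibitors and Bet v I proteins were called higher more often than all genes. Of 22 tested protease inhibitors, small proteins that block digestive enzymes of insects and microbes, 11 were higher and 0 lower, with a median of 1.54. All 11 were of the Kunitz family, and 9 to 11 were higher with any 1 library left out. Glyma.16G212200 had 22.5, 18.3 and 14.8 CPM in PPZ, against 0.0396, 0 and 0.102 CPM in BL, a ratio of 425 (95% counting interval 145 to 2061). Summed over all 55 members the level was 1899 to 2406 CPM in PPZ and 808 to 919 CPM in BL. Of the 55, only 22 had enough counts to be tested, and a gene silent in BL could pass that filter through its level in PPZ.

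Bet v I proteins, the pathogenesis-related class 10, had 9 higher and 0 lower of 29 tested (31.0%), and their sum was 9247 to 11177 CPM in PPZ and 3873 to 4667 CPM in BL. Glyma.15G145600 led by size of change (1.87, 2.36 and 3.19 CPM in PPZ, against 0.119, 0.0414 and 0 CPM in BL, 5.29 ± 0.55, adjusted p = 0.000403). Glyma.07G243500, chosen after its values were seen, took more reads, with 1416, 1405 and 1710 CPM in PPZ, against 25.2, 68.9 and 41.6 CPM in BL (5.06 ± 0.37). Lipid transfer proteins had 12 higher and 0 lower of 49 (24.5%), although 12 of the list were lower without the fold threshold, and their sums overlapped between the groups (2909 to 3297 CPM in PPZ and 2980 to 3282 CPM in BL). Glyma.18G033200 was the most changed of them (27.1, 36.8 and 23.7 CPM in PPZ, against 1.19, 1.45 and 1.22 CPM in BL).

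Pathogenesis-related chitinases, glucanases, thaumatins and CAP proteins were split, 15 higher and 9 lower of 144, with a median of -0.30. PRI1-9 (Glyma.15G062800), a CAP protein of the PR-1 type, had 23.9, 37.9 and 37.9 CPM in PPZ, against 0.238, 0.331 and 0.560 CPM in BL (6.49 ± 0.31, adjusted p = 4.41e-05). Another CAP gene, Glyma.02G060800, differed the other way (0, 0.0982 and 0 CPM in PPZ, against 1.15, 1.16 and 0.917 CPM in BL). Intracellular immune receptors with an NB-ARC domain had 17 higher and 0 lower of 310, a share of 5.48% near that of all genes, although 217 of the 310 had a log2 fold change above 0. The 17 became 11 without PPZ replicate 3 and 8 without BL replicate 1. Glyma.12G218500 led them (18.9, 10.8 and 7.58 CPM in PPZ, against 1.19, 1.53 and 0.866 CPM in BL).

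**Figure D3:**
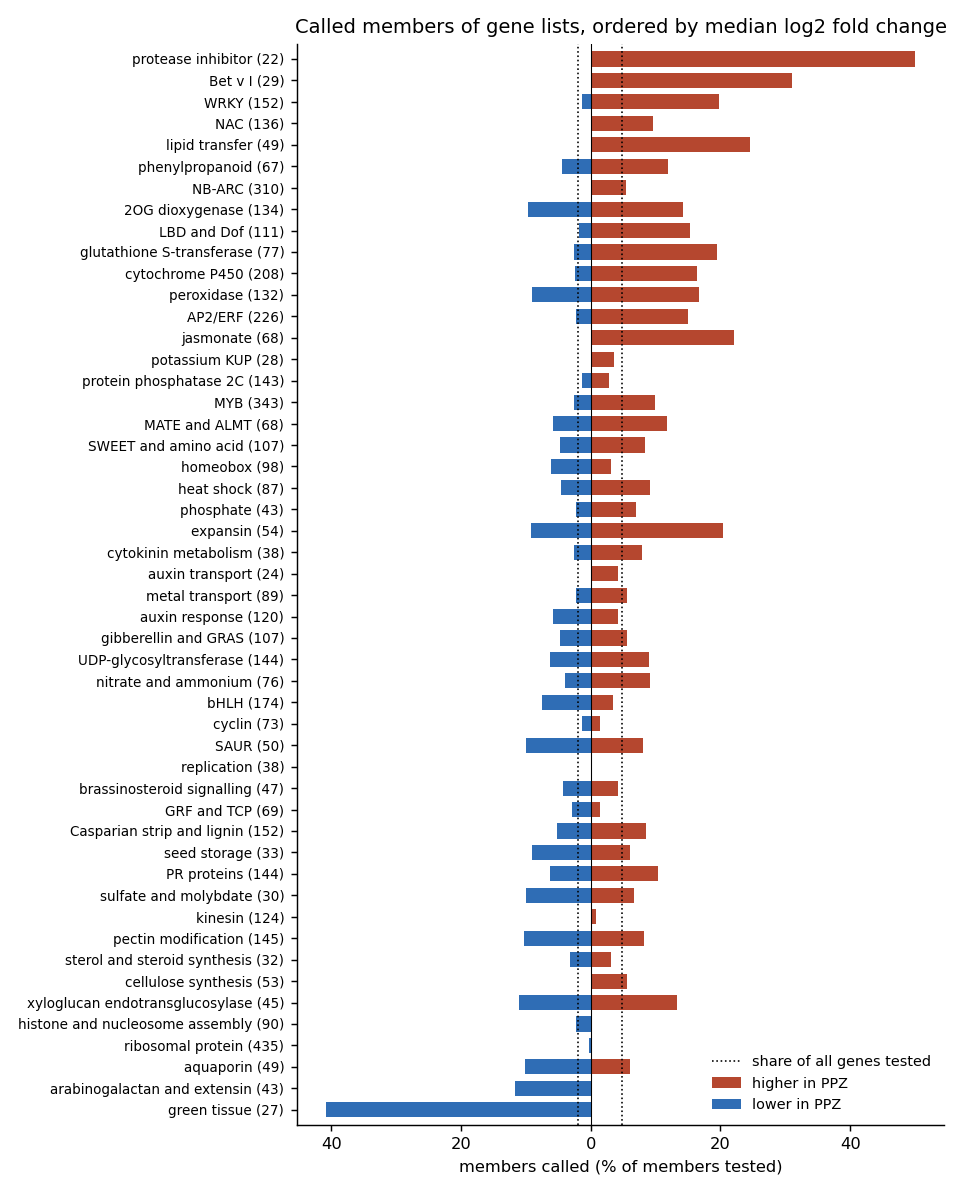
Percent of tested members called higher (red, right) or lower (blue, left) in PPZ for each gene list with at least 20 tested members (number in parentheses), ordered by median log2 fold change. Dotted lines mark the shares of all genes tested, 4.82% higher and 2.00% lower, and protease inhibitors (11 of 22 higher) and chlorophyll a/b binding proteins (40.7% lower) stand at the ends.

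WRKY, NAC, AP2/ERF, MYB, LBD and Dof factors were called higher in PPZ more often than the 4.82% of all genes. More members were lower than higher among bHLH, homeobox, and GRF and TCP factors, while 2.00% of all genes were lower. WRKY factors of defence and stress had 30 higher (19.7%) and 2 lower of 152, with a median of 0.59, and 22 to 28 were higher with any 1 library left out. Glyma.06G062000 had 9.54, 6.82 and 8.06 CPM in PPZ, against 0.0792, 0.0828 and 0.102 CPM in BL (6.46 ± 0.29, adjusted p = 4.16e-05). NAC factors had 13 higher and 0 lower of 136, led by NAC12 (Glyma.16G043200) with 66.2, 42.8 and 29.6 CPM in PPZ, against 0.515, 3.73 and 1.53 CPM in BL (4.58 ± 0.57, adjusted p = 0.000752). AP2/ERF factors had 34 higher (15.04%) and 5 lower of 226, and the lower ones became 2 without PPZ replicate 2 and 8 without BL replicate 3. Glyma.20G203500 had 2.12, 1.18 and 1.05 CPM in PPZ and no count in BL, at least 11.0-fold higher, while Glyma.20G172800 had 0.0505, 0.0491 and 0.191 CPM in PPZ, against 0.951, 1.04 and 1.17 CPM in BL.

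MYB factors had 34 higher (9.91%) and 9 lower of 343, with a median of 0.12, or -0.04 with scaling by library totals. The higher count was 22 without BL replicate 2, and the lower count was 5 or 4 without PPZ replicate 1 or PPZ replicate 2. LBD and Dof factors of lateral organs and vasculature had 17 higher and 2 lower of 111, 11 of the higher ones being LBD genes, and the higher count was 8 to 10 without PPZ replicate 1, PPZ replicate 2, BL replicate 2 or BL replicate 3. Glyma.20G117000 led the MYB genes higher in PPZ (4.09, 1.77 and 1.05 CPM in PPZ, against 0.0792, 0 and 0.102 CPM in BL) and lost its call without BL replicate 2 (4.57). Glyma.19G055800 led those lower (0.151, 0.246 and 0.953 CPM in PPZ, against 4.08, 3.35 and 8.05 CPM in BL) and lost its call without PPZ replicate 2 (-3.18). The LBD gene Glyma.19G046300 had 395, 213 and 116 CPM in PPZ, against 24.7, 4.22 and 4.84 CPM in BL (4.41 ± 0.78, adjusted p = 0.0032), with BL replicate 1 well above the other BL libraries, and it lost its call without PPZ replicate 2 (4.49), BL replicate 2 (4.0) or BL replicate 3 (4.05). Glyma.15G258100, the LBD gene with the largest difference downward (0.909, 0.835 and 0.238 CPM in PPZ, against 1.94, 3.85 and 5.09 CPM in BL), kept its call in 1 of the 6 fits without a library.

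bHLH factors had more lower than higher members, 6 higher and 13 lower (7.47%) of 174. Without PPZ replicate 2 these were 7 higher and 6 lower, without BL replicate 2 they were 6 each way, and the higher count was 11 without PPZ replicate 3. Glyma.03G034000 had 0.151, 0.196 and 0.429 CPM in PPZ, against 3.72, 3.39 and 2.50 CPM in BL (-3.59 ± 0.37, adjusted p = 0.000397). Glyma.07G051500, with the domain that binds MYB and JAZ partners, had 3.69, 3.04 and 3.77 CPM in PPZ, against 0.198, 0 and 0.204 CPM in BL (4.68 ± 0.51, adjusted p = 0.000456). Homeobox factors had 3 higher and 6 lower of 98, and the lower count was 3 without PPZ replicate 1, PPZ replicate 3, BL replicate 1 or BL replicate 2. Glyma.13G102800 led the homeobox genes higher in PPZ (6.36, 3.63 and 6.01 CPM in PPZ, against 0.277, 0.828 and 0.611 CPM in BL), and Glyma.06G041800 those lower (0.151, 0.393 and 0.0477 CPM in PPZ, against 0.872, 1.12 and 1.07 CPM in BL), with a call kept in 1 of the 6 fits without a library. GRF and TCP growth factors had 1 higher and 2 lower of 69. The TCP gene Glyma.17G132400 was higher (34.5, 23.1 and 19.3 CPM in PPZ, against 7.13, 6.08 and 6.11 CPM in BL) and GRF17 (Glyma.17G050200) lower (0.707, 0.687 and 0.810 CPM in PPZ, against 4.04, 2.48 and 1.88 CPM in BL), with a call kept in 2 of the 6 fits. In the heat shock list 8 were higher and 4 lower of 87, and heat shock factors gave 7 of the 8. The lower count was 2 without PPZ replicate 2, PPZ replicate 3 or BL replicate 2, and the small heat shock protein Glyma.06G134900 led it (0.353, 0.147 and 0.143 CPM in PPZ, against 0.911, 1.95 and 2.19 CPM in BL) and lost its call without the same libraries (-2.71 to -2.83). The heat shock factor Glyma.17G053700 had 3.43, 1.96 and 2.34 CPM in PPZ, against 0, 0.0828 and 0.0509 CPM in BL, a ratio of 59.1 (95% counting interval 19.9 to 290).

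Genes of the cell wall changed in both directions, family by family. Expansins had 11 higher (20.4%) and 5 lower of 54 tested, with a median of 0.00 and 27 members on each side of 0. Their sum was 3496 to 4248 CPM in PPZ and 1309 to 1397 CPM in BL. Of the PPZ sums Glyma.17G147500 alone took 1811, 1427 and 1760 CPM, so the sum does not describe the family as a whole. Besides Glyma.17G147500, the neighbouring Glyma.17G147600 (chromosome 17, 12132484 to 12135150) had 9.39, 5.30 and 27.6 CPM in PPZ, against 0.277, 0.0828 and 0.255 CPM in BL (6.08 ± 0.83, adjusted p = 0.00109). Glyma.17G147400 nearby, chosen after its values were seen, had 963, 820 and 760 CPM in PPZ, against 56.2, 65.9 and 73.2 CPM in BL (3.70 ± 0.16), and reads of such near copies may be shared between them in the counting. EXPB2 (Glyma.10G122300) went the other way (0.303, 0.147 and 0.143 CPM in PPZ, against 2.02, 1.90 and 1.53 CPM in BL, -3.18 ± 0.36). The count of lower expansins was 2 or 3 without PPZ replicate 2, PPZ replicate 3 or any BL library.

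Xyloglucan endotransglucosylases, which cut and rejoin hemicellulose, had 6 higher and 5 lower of 45 with a median of -0.55. Glyma.13G103100 had 90.0, 51.1 and 75.7 CPM in PPZ, against 3.61, 7.04 and 8.25 CPM in BL (3.53 ± 0.33), and Glyma.13G322500 had 0.404, 0.344 and 0.620 CPM in PPZ, against 11.1, 7.37 and 4.43 CPM in BL (-4.05 ± 0.43). Without PPZ replicate 1 the calls were 3 each way, and without BL replicate 1 the lower ones were 3. Pectin-modifying genes had 12 higher and 15 lower (10.3%) of 145. The pectin methylesterase inhibitor domain was carried by all 12 higher ones, 6 of them with a pectinesterase domain, and by 9 of the 15 lower ones. Among the enzymes that break pectin polygalacturonases had 0 higher and 3 lower of 47 and pectate lyases 0 higher and 2 lower of 17. The pectinesterase Glyma.01G138000 had 1.51, 1.23 and 3.34 CPM in PPZ, against 0, 0 and 0.102 CPM in BL, and Glyma.19G212400 had 0.151, 0.0982 and 0 CPM in PPZ, against 1.51, 1.20 and 2.65 CPM in BL.

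Fasciclin-like arabinogalactan proteins, cell surface proteins, had 0 higher and 4 lower of 26 tested, and with extensins and Ole e 1 proteins 0 higher and 5 lower of 43 with a median of -0.69. The 5 became 3, 2 and 3 without PPZ replicate 1, PPZ replicate 2 and BL replicate 1, and 10 with scaling by library totals. The fasciclin gene Glyma.13G327100 led them (0.252, 0.393 and 0.524 CPM in PPZ, against 1.90, 1.37 and 1.53 CPM in BL) and lost its call without PPZ replicate 2 (-2.02). Cellulose synthases and COBRA proteins had 3 higher and 0 lower of 53 but a median of -0.51, and their summed level was 2649 to 2802 CPM in PPZ and 3750 to 4334 CPM in BL. The COBRA gene Glyma.13G053300 differed from that (10.4, 7.95 and 5.05 CPM in PPZ, against 0.277, 0.414 and 0.255 CPM in BL, 4.59 ± 0.37).

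Class III peroxidases, which cross-link or loosen walls, had 22 higher (16.7%) and 12 lower (9.09%) of 132. Glyma.18G055600 had 2.58, 1.77 and 6.82 CPM in PPZ, against 0, 0.0414 and 0.0509 CPM in BL, a ratio of 130 (95% counting interval 35.5 to 1078). Glyma.14G053700 had 0.707, 0.933 and 0.572 CPM in PPZ, against 17.3, 13.9 and 17.2 CPM in BL (-4.44 ± 0.20, adjusted p = 4.16e-05). Dirigent proteins, laccases and Casparian strip proteins of the endodermis had 13 higher and 8 lower of 152, of which the 56 Casparian strip family members gave 4 higher and 1 lower. The dirigent gene Glyma.03G044900 had 42.0, 89.0 and 80.8 CPM in PPZ, against 0.753, 2.90 and 1.53 CPM in BL (5.35 ± 0.47), and the multicopper oxidase Glyma.12G060900 had 1 count in each PPZ library, against 1.15, 1.49 and 1.83 CPM in BL.

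Detoxification and phenylpropanoid genes had more higher than lower members, as had all genes (4.82% higher and 2.00% lower). Glutathione S-transferases had 15 higher (19.5%) and 2 lower of 77, with 9 higher without BL replicate 2. GSTU38 (Glyma.08G174900) had 58.9, 31.5 and 53.8 CPM in PPZ, against 0.515, 5.38 and 4.89 CPM in BL (3.76 ± 0.61, adjusted p = 0.00219), and Glyma.10G019900 had 1.31, 0.786 and 0.620 CPM in PPZ, against 12.99, 8.90 and 7.94 CPM in BL. Of phenylpropanoid enzymes 8 were higher (11.9%) and 3 lower (4.48%) of 67, with 5 and 4 higher without BL replicate 1 and BL replicate 2. The O-methyltransferase Glyma.10G215700 had 86.3, 74.1 and 86.6 CPM in PPZ, against 5.47, 4.35 and 4.84 CPM in BL (4.07 ± 0.13, adjusted p = 2.63e-05). The O-methyltransferase Glyma.10G176700 had the largest difference downward (0.252, 0 and 0 CPM in PPZ, against 0.634, 1.37 and 1.99 CPM in BL), with a call kept in 2 of the 6 fits without a library. Chalcone synthases, at the entry of flavonoid synthesis, had 17 of 18 genes with a log2 fold change above 0 and 3 called. Chalcone isomerases, the next enzymes, had 0 of 8 called and a median of 0.00, and phenylalanine ammonia-lyases 0 of 10 called and a median of 0.77.

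Ribosomal proteins, histones and kinesins were lower in PPZ more often than all genes without the fold threshold, and seldom past it. Of 435 tested ribosomal proteins, 1 was higher and 1 lower, yet 404 had a log2 fold change below 0, the median was -0.62, and 277 were lower and 6 higher without the fold threshold, beside 4642 lower and 4853 higher of all 35837 genes. Their summed level was 32156 to 36820 CPM in PPZ and 50703 to 57963 CPM in BL. Core histones, linker histones and nucleosome assembly proteins had 0 higher and 2 lower of 90, with 3 and 46 without the fold threshold, a median of -0.60 and a sum of 4455 to 5460 CPM in PPZ and 6698 to 7785 CPM in BL. Kinesins, the motors of the division spindle and of transport, had a median of -0.36 and 4 higher against 25 lower of 124 without the fold threshold. Replication genes (median -0.19) had 0 higher and 3 lower of 38 without the fold threshold and cyclins (median -0.18) 6 higher and 9 lower of 73, no larger a share than of all genes. The medians of these families were below 0 under median-ratio scaling and under library totals alone as well, from -0.59 to -0.78 for ribosomal proteins and histones.

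**Figure D4:**
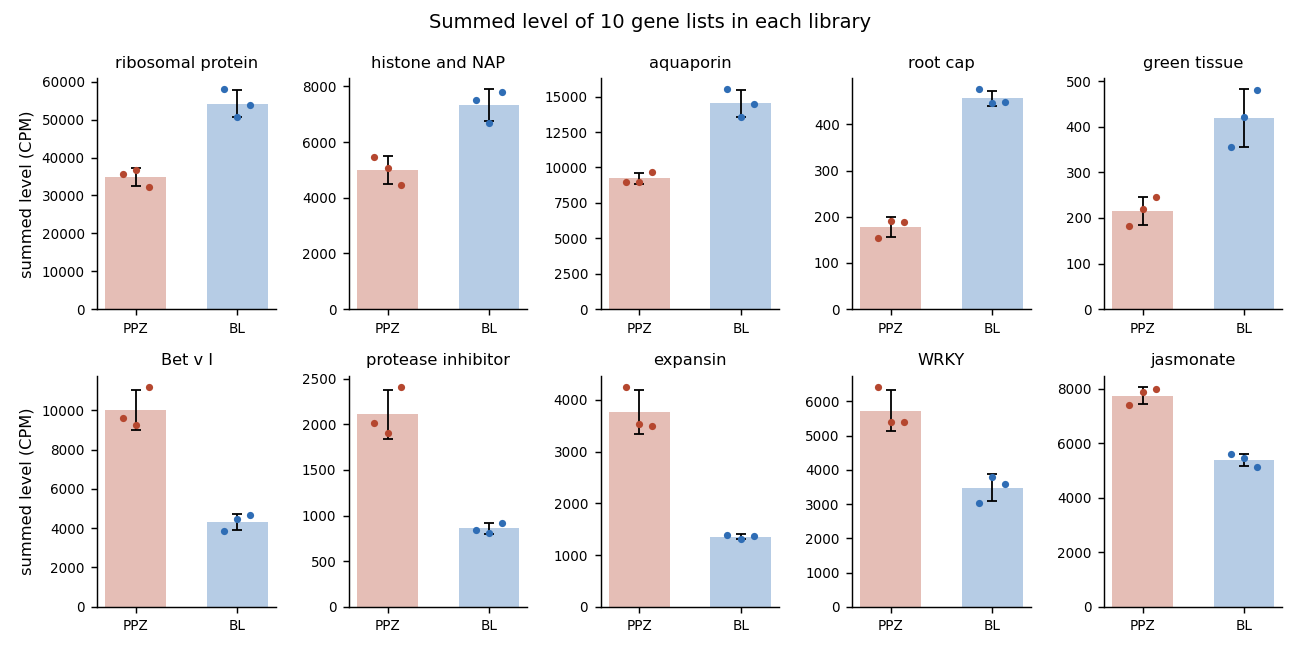
Summed level (CPM) of 10 gene lists, with all members counted, in the 3 PPZ (red) and 3 BL (blue) libraries; bars are means, error bars SD and points libraries. The groups do not overlap in any of the 10 lists, with ribosomal proteins at 32156 to 36820 CPM in PPZ and 50703 to 57963 CPM in BL and Bet v I proteins at 9247 to 11177 CPM in PPZ and 3873 to 4667 CPM in BL. The 10 lists were chosen with the results known, and sums of lists not shown overlapped, among them lipid transfer proteins and cupins.

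Markers of the root cap and of green tissue were below 0 on the log2 scale in 6 of 6 and 25 of 27 tested members. Of 6 tested root cap proteins 5 were lower, with a median of -2.12, and the count was 4 or 5 with any 1 library left out. Glyma.13G281100 had 0, 0 and 0.0477 CPM in PPZ, against 1.47, 1.28 and 1.07 CPM in BL, a ratio of 78.8 (95% counting interval 13.8 to 3148) of BL over PPZ. The more abundant Glyma.11G147700, chosen after its values were seen, had 20.2, 22.6 and 20.1 CPM in PPZ, against 94.3, 96.6 and 88.2 CPM in BL (-2.15 ± 0.10, adjusted p = 4.16e-05). Of 27 tested chlorophyll a/b binding proteins 11 (40.7%) were lower and 0 higher, with a median of -1.54, and the count was 7 without PPZ replicate 2 and 6 without BL replicate 3. Glyma.18G028400 had 0, 0.0491 and 0.191 CPM in PPZ, against 0.753, 1.04 and 1.17 CPM in BL, and lost its call without PPZ replicate 2, BL replicate 2 or BL replicate 3 (-3.25 to -3.47). What part the makeup of the 1 cm tips has in the other differences was not tested. Of the cupins, a family with seed storage proteins, germin GER12 (Glyma.20G220900) was higher (25.1, 13.8 and 23.2 CPM in PPZ, against 0.238, 0.952 and 1.12 CPM in BL) and Glyma.07G038800 lower (2.12, 1.57 and 3.96 CPM in PPZ, against 12.9, 10.7 and 11.9 CPM in BL), and the summed cupin levels overlapped.

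Mineral transporters were among the genes the study followed. For those it names by identifier, the study reported lower levels after BL and after PPZ, each against mock samples, by quantitative RT-PCR. Whether they differ from mock was not tested here, since no mock library was used. A gene lowered alike by both agents need not differ between PPZ and BL. All 6 genes were compared between PPZ and BL, and none was called. GmKT2 (Glyma.13G170700), a potassium transporter, had 1.72, 1.82 and 2.86 CPM in PPZ, against 5.35, 5.38 and 3.67 CPM in BL (-1.17 ± 0.26, adjusted p = 0.00832), and GmVIT2 (Glyma.08G181900), a vacuolar iron transporter, had 2.78, 3.39 and 3.58 CPM in PPZ, against 1.31, 1.61 and 1.22 CPM in BL (1.23 ± 0.21, adjusted p = 0.00298). Both passed the threshold on p and not that on the fold change, and their groups did not overlap. GmKT1 (Glyma.08G086300) had 5.30, 6.53 and 7.63 CPM in PPZ, against 5.78, 6.42 and 3.82 CPM in BL (0.27 ± 0.22, adjusted p = 0.351). GmZIP1 (Glyma.13G338300), of the zinc and iron carriers, had 26.5, 32.3 and 33.1 CPM in PPZ, against 39.3, 34.7 and 42.7 CPM in BL (-0.34 ± 0.12, adjusted p = 0.0509). GmZIP2 (Glyma.08G328000) differed by -0.09 ± 0.34 and the molybdate transporter GmMOT1 (Glyma.17G203200) by 0.57 ± 0.35, with overlapping groups.

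Other members of the mineral families were called. The ZIP carrier Glyma.13G004400 had 92.2, 71.1 and 96.4 CPM in PPZ, against 7.73, 13.7 and 16.6 CPM in BL (2.78 ± 0.27, adjusted p = 0.000317), and the nicotianamine synthase Glyma.03G231200, which makes a metal chelator, had 0.101, 0.393 and 0.191 CPM in PPZ, against 1.19, 1.53 and 2.04 CPM in BL, and lost its call without BL replicate 2 (-2.79). PHO1-H10 (Glyma.20G032500), of the phosphate exporters, had 59.1, 35.6 and 44.3 CPM in PPZ, against 0.792, 1.99 and 2.24 CPM in BL (4.81 ± 0.34, adjusted p = 0.000124), while its relative PHO1-H3 (Glyma.09G235200) had 0.303, 0.246 and 0.238 CPM in PPZ, against 1.98, 2.32 and 1.78 CPM in BL (-2.93 ± 0.29, adjusted p = 0.000347). The sulfate permeases Glyma.10G028900 (14.4, 22.0 and 33.7 CPM in PPZ, against 3.92, 6.62 and 4.84 CPM in BL) and Glyma.13G087200 (2.42, 2.80 and 1.57 CPM in PPZ, against 9.71, 10.3 and 6.47 CPM in BL) also went opposite ways. Within these families single genes thus stood far apart between the treatments while the called shares, 5 and 2 of 89 for metals and 3 and 1 of 43 for phosphate, were near those of all genes. The lower metal carriers were 9 without PPZ replicate 3, 5 without BL replicate 1 and 0 without BL replicate 2, and the higher ones 3 without BL replicate 1 or BL replicate 3.

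Nitrate and ammonium carriers had 7 higher and 3 lower of 76, and without BL replicate 1 these were 4 and 5. Glyma.10G005400 of the NPF family had 20.9, 17.8 and 25.3 CPM in PPZ, against 2.18, 3.23 and 3.46 CPM in BL (2.86 ± 0.21, adjusted p = 0.000132). The NPF gene Glyma.14G047200, whose model overlaps another gene, had 0, 0.147 and 0.0477 CPM in PPZ, against 1.39, 1.78 and 1.27 CPM in BL. Aquaporins had 3 higher and 5 lower of 49 with a median of -0.64 and 40 of 49 below 0, and their sum was 8957 to 9702 CPM in PPZ and 13560 to 15508 CPM in BL. Glyma.13G356000 had the largest difference downward among them (0.0505, 0.246 and 0.191 CPM in PPZ, against 3.65, 2.98 and 5.86 CPM in BL, -4.61 ± 0.47). NIP1-4 (Glyma.15G087300) led those higher (1.16, 0.835 and 2.38 CPM in PPZ, against 0.0396, 0 and 0.153 CPM in BL), with a call kept in 4 of the 6 fits without a library. In the SWEET and amino acid carrier list 9 were higher and 5 lower of 107, with 3 lower without PPZ replicate 2, PPZ replicate 3 or BL replicate 1, and the amino acid carrier Glyma.12G023100 led those higher (0.757, 1.67 and 3.34 CPM in PPZ, against 0.0396, 0.0828 and 0.0509 CPM in BL) and lost its call without BL replicate 2 (5.25). MATE carriers and malate channels had 8 higher and 4 lower of 68, the lower ones 2 without PPZ replicate 3, BL replicate 2 or BL replicate 3, and the MATE carrier Glyma.02G090000 had 40.1, 29.8 and 26.1 CPM in PPZ, against 3.53, 3.10 and 2.50 CPM in BL.

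In PPZ plus BL, whose order of treatment is not settled by the sources, most of these genes stood nearer to BL than to PPZ. Of the 1729 genes higher in PPZ, the mean of PPZ plus BL (log2 of CPM + 0.5) lay nearer to that of BL for 1703 (98.5%), and of the 716 lower genes for 577 (80.6%). On a scale from 0 at the BL mean to 1 at the PPZ mean, the median gene stood at -0.04 among those higher and at 0.12 among those lower in PPZ. The calls were made on PPZ and BL libraries, and their extremes are drawn apart by that choice, so these shares are a description without a test. With all 9 libraries scaled together, ADH2 (Glyma.04G240800) was at 394, 367 and 428 CPM in PPZ plus BL, and the lipoxygenase Glyma.08G189500 at 52.1, 38.8 and 55.1 CPM, both far below the PPZ libraries. SGF14P (Glyma.13G270600), at 48.9, 54.3 and 38.7 CPM, overlapped with the BL libraries.

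Some genes lower in PPZ were not at the level of BL in PPZ plus BL. The zinc finger homeodomain gene Glyma.07G107200 had 0.346, 0.0804 and 0.0987 CPM in PPZ plus BL, close to PPZ, and the peroxidase Glyma.14G053700 had 3.75, 5.83 and 4.94 CPM, between the other groups. EF4 (Glyma.05G114900) had 692, 863 and 1000 CPM in PPZ plus BL, above every PPZ library and below every BL library.

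**Figure D5:**
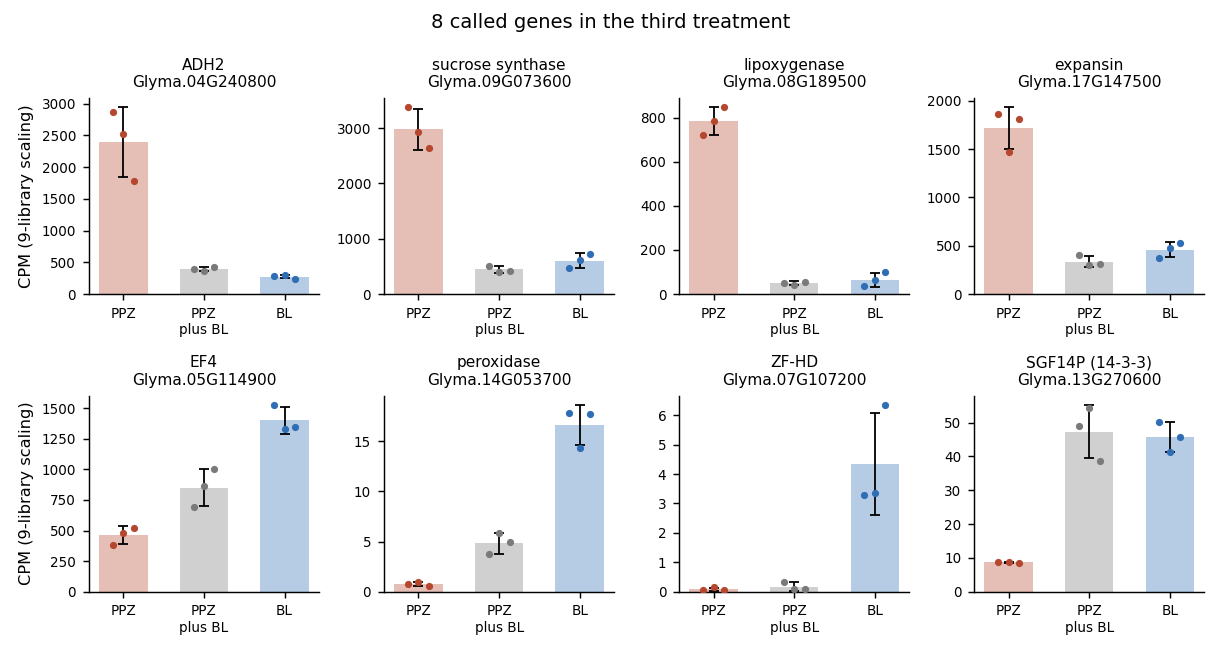
Level (CPM, scaled over 9 libraries) of 8 called genes in PPZ (red), PPZ plus BL (grey) and BL (blue), 3 libraries each; bars are means, error bars SD and points libraries. The 4 genes of the top row are near BL in PPZ plus BL, while EF4 (692 to 1000 CPM) and the peroxidase (3.75 to 5.83 CPM) lie between the other groups and the zinc finger homeodomain gene (0.0804 to 0.346 CPM) stays near PPZ.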

How the data were processed

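Root tip RNA was sequenced as paired-end libraries made with a kit that does not mark strand. Per the labels and the study's methods, the authors aligned reads with HISAT2 2.0.5 and deposited counts per gene from featureCounts 1.5.0-p3, on gene models named Wm82.a4, with no normalization. The 12 FPKM columns and the fold changes and p-values of 5 DESeq2 comparisons in the same table were not used. Positions are those of the count table; the genome build of the alignment is otherwise not given in the sources used here.

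Counts of 3 PPZ and 3 BL libraries were fitted in edgeR 4.0.16 (R 4.3.3) with filterByExpr, TMM and the quasi-likelihood test, with Benjamini-Hochberg adjustment over 36443 features. A call needed an adjusted p not above 0.01 and a 3-fold difference. Levels are CPM with TMM factors, and a fold against a group without counts uses a floor of 3 counts per library. Counting intervals are exact 95% intervals and, like floors, cover counting error only. In simulated data 200 genes were changed by 2 on the log2 scale, in equal numbers up and down. Of these 163 were recovered, with 1 false call, and a test against a fold change of 3 recovered 0. The real comparison had 2445 calls, more of them higher than lower, so these rates need not hold for it.

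The 53 gene lists were set by Pfam accession or description, and members, lists and thresholds were chosen with earlier results of these data known. Named genes were the 10 largest changes each way and the most changed member each way of every list with at least 3 called members (no overlap between groups, and 10 or more counts in each library of the group where the gene was higher), the 5 most counted called genes each way and 6 transporters of the study. RefSeq symbols (Glycine_max_v4.0) were matched to 33802 genes by position, at an overlap of at least 0.8. Alternatives were DESeq2 1.42.0, other scalings and filters, 9 libraries, the replicate number as a block, no fold threshold, a test against the fold threshold, and leaving out each library. A planned search of promoter motifs was not run. Within a group 1.08% to 1.97% of genes had equal counts in a pair of libraries, so no library was a copy of another. The series text names the brassinosteroid as eBL in places and as BL in others, which the sources used here do not settle.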

Additional observations from a re-analysis of the deposited data

Results flagged for a closer look

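Outside the annotated genes, the count table holds loci that the comparisons above leave out. Of 606 such unannotated loci tested, 55 were called between PPZ and BL, 38 higher and 17 lower in PPZ. They drew attention because they are data with a difference that no comparison above uses. All unannotated loci together took 0.558% to 0.621% of the counts of a library.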

How the results depend on the processing

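The numbers of annotated genes called, 1729 higher and 716 lower in PPZ, stayed within 1.5 times under DESeq2, both other scalings, no filter, the fit of 9 libraries and each left-out library. Without a fold threshold they were 4853 and 4642, and in a test against a fold change of 3 they were 339 and 55. With a mean of at least 50 counts 377 genes were lower, where fewer genes were tested. With a library left out the counts were 1349 to 1710 higher and 495 to 717 lower. Scaling by library totals moved the higher share of the calls to 59.5%.

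Same-numbered libraries deviated from their group means with correlations of -0.05, -0.19 and 0.12, and not every library correlated best with its own number. The second principal component (7.99% of the variance) fell from replicate 1 to replicate 3 in both groups. Its values were 27.2, 9.09 and -36.4 in PPZ and 21.1, -3.19 and -17.8 in BL. Deviations within groups of 3 libraries cannot settle whether the replicate numbers pair them. With the replicate block 1587 genes were higher and 574 lower, of which 1550 and 560 were also called without it.

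Of 102 called genes of the naming rule, 20 lost the call without at least 1 library, 5 under the block and 59 in the test against a fold change of 3. GmZIP2 (-0.09) ranged from -0.37 to 0.13 with a library left out and changed direction, to 0.13 without PPZ replicate 3, 0.00 without BL replicate 1 and 0.11 without BL replicate 3. At these depths 3 counts are 0.119 to 0.153 CPM, which limits the genes near 1 CPM.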

Other observations

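The following families were gathered after the values had been seen and are given as values. Plant cysteine oxidases were higher in PPZ in 12 of 19 tested genes and lower in 0, and the family summed to 2433, 1660 and 1007 CPM in PPZ, against 311, 235 and 178 CPM in BL. Their 12 called members ran from 1.83 to 9.18 on the log2 scale. Of the pyruvate decarboxylase family 5 were higher of 13 tested, among them Glyma.03G055100 with 236, 207 and 171 CPM in PPZ, against 4.20, 4.22 and 2.14 CPM in BL. Sucrose synthases and their relatives had 3 higher and 0 lower of 14, with 9 of the 14 below 0 and a median of -0.14. Among them Glyma.19G212800 had 1748, 1517 and 1103 CPM in PPZ, against 85.5, 89.7 and 70.9 CPM in BL. The stearoyl-ACP desaturase SACPD-C (Glyma.14G121400) had 828, 648 and 408 CPM in PPZ, against 87.0, 86.7 and 68.2 CPM in BL. It was the only 1 called of 4 soluble desaturases tested, and the other 3 had a log2 fold change below 0. The alcohol dehydrogenase family had 6 higher and 1 lower of 43 tested, with a median of 0.10. In plants, alcohol dehydrogenase, pyruvate decarboxylase, sucrose synthase and cysteine oxidase genes are known to be transcribed more when oxygen is low. Whether oxygen had a part in these differences was not tested.

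Receptor-like kinases and secreted proteins with the cysteine-rich DUF26 domain had 19 higher and 1 lower of 89 tested, with a median of 0.80. GDSL lipases had 16 higher (34.0%) and 3 lower (6.38%) of 47, beside 4.82% and 2.00% of all genes. Their median was -0.12, with 25 of the 47 below 0. Of their 168 members 71 had no count in any of the 6 libraries, and a gene silent in BL could pass the filter through its level in PPZ. On the other side, proteins with the DUF241 domain, of unknown function, had 0 higher and 14 lower of 35, although their sum was only 50.6 to 70.1 CPM in PPZ and 76.3 to 104 CPM in BL. Tubulins, the subunits of microtubules, had 0 higher and 5 lower of 38 with a median of -0.85, and summed to 2178 to 2471 CPM in PPZ and 4219 to 5067 CPM in BL. TUBB1 (Glyma.08G014200) had 4.29, 6.43 and 5.96 CPM in PPZ, against 38.6, 22.2 and 36.3 CPM in BL. Subtilisin-like proteases had 0 higher and 7 lower of 68.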
